A study of Mus musculus with 6 samples.

Results

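Of the 65956 transcript clusters measured on the mouse arrays, 33142 carried no gene symbol in the platform annotation used here, which was 50.2% of the array, and these unnamed clusters are described here. A transcript cluster is a group of probes placed along 1 stretch of the genome and summarised as 1 value. The unnamed clusters were found by that rule alone, without their levels. Of the rest, 30646 clusters carried 1 symbol and 2168 carried several. An empty entry means that the annotation gave no symbol, not that no gene lies there, so each cluster keeps its identifier. Its first 2 characters after TC give the chromosome and the digits that follow give a serial number (the ending .mm.1, common to almost all, is left off here).

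RNA came from CD4+CD25+Nrp1+ regulatory T cells (Tregs) of the spleen of untreated male B6 mice aged 10 to 12 weeks, with 1 mouse per array and 3 arrays per group. The CREB-KO mice were Foxp3creCREBfl/fl, so that Cre was made from the Foxp3 locus and removed CREB in Foxp3-expressing cells. The CREB-WT mice are labelled wild type, and the study's methods describe controls as CREBfl/fl without Cre. The Cre allele and the loss of CREB therefore cannot be told apart in these arrays.

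CREB is a transcription factor that binds cAMP response elements, and in Tregs it is known for its action on the Foxp3 locus. Whole-transcriptome arrays hold many clusters outside annotated protein-coding genes. Such clusters can lie on long non-coding RNAs, on small RNAs, on pseudogenes, on repeated elements or on unannotated parts of known genes. Many non-coding RNAs are made in few cell types and at low level. No probe sequence or genome interval for the unnamed clusters was used here, so none of these classes was assigned to any of them.

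All 6 arrays had similar overall levels, with medians over all clusters between 4.480 and 4.578 on the log2 scale. The 7 measured markers of Tregs and T cells of a list of 8 had mean levels from 12.1 to 17.2. Markers of macrophages and monocytes were also present, with list means of 6.13 to 8.58 in the CREB-KO arrays and 7.86 to 9.50 in the CREB-WT arrays, and 0 of these 5 markers passed the study thresholds given below. List means of B cell markers were 6.55 to 6.95 in CREB-KO and 6.85 to 7.27 in CREB-WT. Those of CD8 T and natural killer cells were 7.38 to 7.56 and 7.30 to 7.65. The 1 erythroid marker measured had a mean of 5.91. Of the markers of these lists, too, 0 passed. The part of such cells in any result was not tested. On the first principal component of the unnamed clusters, which held 29.9% of their variance, CREB-WT replicate 1 lay at 64.4 and CREB-KO replicate 2 at -55.6, while the other 4 arrays lay between -13.0 and 19.8. The calls of 51 single clusters and sets were therefore followed with 1 array left out. Where any of these that the text names lost its call, its difference without that array is given. Clusters named only as members of a run of adjacent numbers were not followed. The cluster named Creb1 had levels of 14.10, 14.39 and 14.79 in the CREB-KO arrays and 13.30, 13.94 and 13.34 in the CREB-WT arrays. It was thus higher in CREB-KO by 0.90 ± 0.25 (SE). No source used here tells which of its probes lie in the floxed exons, so this level checks nothing about the deletion, and every direction reported here is between arrays as they are labelled.

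Unnamed clusters were measured at lower levels than named ones. The median of their mean levels over the 6 arrays was 4.32, against 4.81 for clusters with a symbol. Per array, the median over unnamed clusters was 4.346, 4.384 and 4.381 in CREB-KO and 4.280, 4.326 and 4.286 in CREB-WT. In each array it lay below the median of the named clusters, by 0.432 to 0.503. The upper tail was long, since the 95th percentile of unnamed clusters lay between 11.052 and 11.557 on the 6 arrays.

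Olfactory receptors, which serve odour detection in the nose, gave a reference for clusters without transcription in T cells. The 95th percentile of the mean level of the 1228 clusters with an olfactory receptor symbol was 5.085. Of the unnamed clusters, 10979 or 33.1% lay above it, compared with 5.05% of the olfactory receptor clusters themselves and 45.7% of all named clusters. Among named classes, 21.0% of RIKEN clones, 41.2% of predicted models, 42.2% of microRNA clusters, 52.3% of clusters with other symbols and 82.4% of small nucleolar RNA clusters lay above that level. The unnamed clusters thus lay between RIKEN clones and predicted models. Taken per array, with the level set anew on each, the share of unnamed clusters above it ran from 30.1% in CREB-KO replicate 1 to 33.7% in CREB-WT replicate 2. With the 90th or the 99th percentile in its place, the share was 38.06% or 22.13%.

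**Figure D1:**
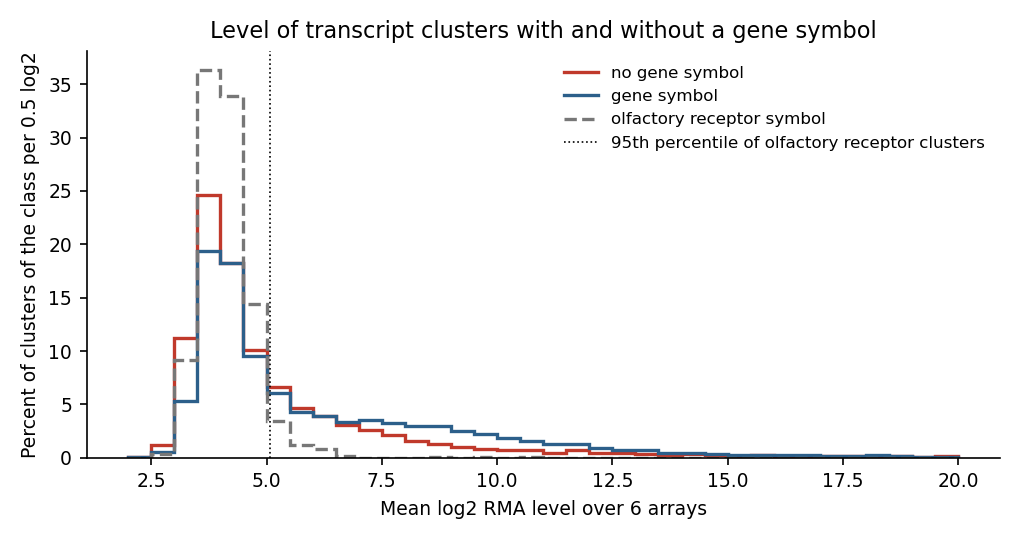
Percent of clusters (vertical axis) per 0.5 log2 of mean RMA level over 6 arrays (horizontal axis) for clusters without a symbol, with a symbol and with an olfactory receptor symbol. The unnamed clusters peak with the olfactory receptors, left of the dotted line at 5.085, and 33.1% of them extend to its right.

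Replicates of unnamed clusters also differed more from each other. The median within-group SD of a cluster was 0.254 for unnamed clusters, 0.195 for named clusters and 0.227 for olfactory receptor clusters. This held at equal level too, with median SDs of 0.471 and 0.261 for unnamed and named clusters at mean levels of 6 to 8. At the upper end, 573 unnamed and 509 named clusters exceeded 16 on at least 1 array, the highest log2 value that a 16-bit scan can hold, and no source used here tells how the deposited scale reaches 19.93. In 89 unnamed clusters and 37 named ones, every array exceeded 19.

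The highest unnamed levels hardly varied. The first of them was a set of 23 unnamed clusters with TC0100000170 as its first member, which read 19.93, 19.88 and 19.93 in CREB-KO and 19.93 in each CREB-WT array. All 6 of these values were equal to those of Rn28s1, the 28S ribosomal RNA gene. Next to it in level stood TC0100000169, TC1900000121, TC1700000854 and TC0400003119, and then TC0M00000025 of the mitochondrial genome. Differences between groups among the 10 highest ranged no further than -0.033 to 0.011, and the arrays gave nearly the same reading for each, which leaves little room for a difference at this end of the scale. Of clusters below 16 on all arrays, the highest were TC0800000820, between Fam32a and Ap1m1 in cluster number, at a mean of 15.88, and TC0800001243 at 15.84. Neither differed between groups by more than its error, with differences of 0.01 ± 0.11 and -0.06 ± 0.11 (SE).

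By chromosome, the unnamed clusters made up 37.7% of clusters on chromosome 7, where their share was lowest among autosomes, and 59.0% on chromosome 18, where it was highest. Their number ran from 859 on chromosome 19 to 2619 on chromosome 2, with 1371 on X and 300 on Y. Median levels differed little among autosomes, from 4.17 on chromosome 18 to 4.56 on chromosome 11. The Y chromosome stood lower, with a median of 3.89 and 8.33% of its unnamed clusters above the olfactory receptor level. The 101 unnamed clusters on random or unplaced scaffolds stood higher, with a median of 5.92 and 65.3% above that level.

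Cluster numbers gave a position without any coordinate. Named clusters were matched to RefSeq genes, and 22315 of 22408 (99.58%) lay on the chromosome of their identifier. On each of 20 chromosomes the numbers ran along the chromosome once and then started again, with at least 97.97% of neighbouring pairs in RefSeq order. On the 19 of these with strands in the tables used, all but chromosome 18, the first run held genes of the plus strand (98.92% or more) and the second those of the minus strand (94.37% or more). The nearest named clusters on either side of an unnamed cluster are given on this basis, as a position only.

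Before any rescaling, the unnamed clusters were slightly higher in CREB-KO. The 3 CREB-KO array medians (4.346 to 4.384) lay above the 3 CREB-WT medians (4.280 to 4.326), and the median difference per cluster was 0.063, with 61.7% of unnamed clusters above 0. Named clusters had a median difference of 0.037, and the olfactory receptor clusters one of 0.089. When each array was centred on the median of all its clusters, the unnamed medians became -0.200, -0.178 and -0.197 in CREB-KO and -0.200, -0.201 and -0.201 in CREB-WT, and the groups came within 0.02 of each other. The median difference of unnamed clusters was then -0.0008 and 49.9% lay above 0. The distance between unnamed and named medians within an array, which centring cannot change, was -0.494, -0.432 and -0.464 in CREB-KO and -0.503, -0.480 and -0.475 in CREB-WT. These values overlapped between the groups.

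**Figure D2:**
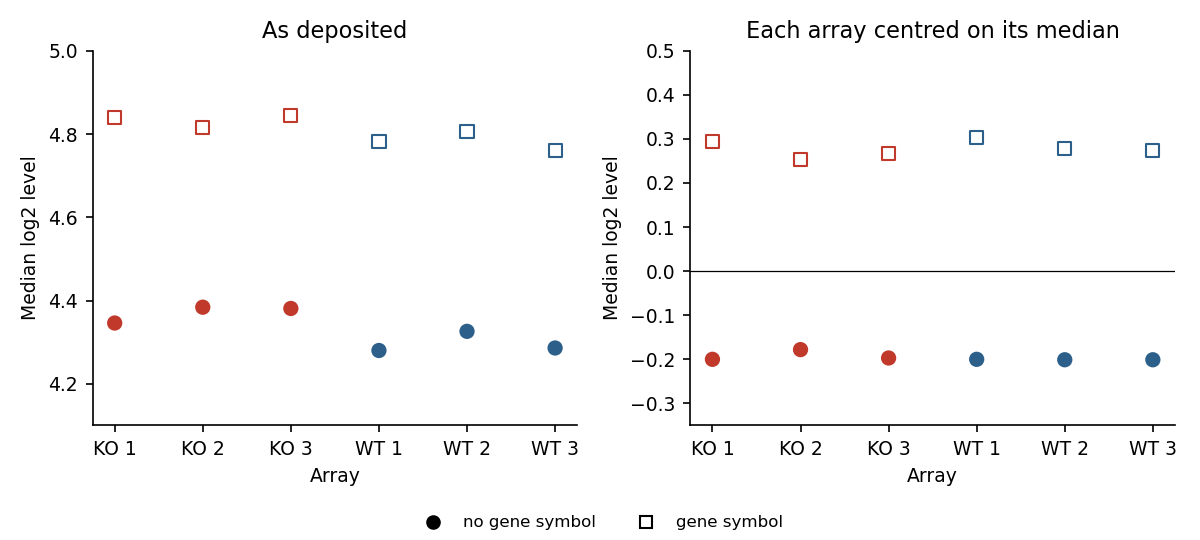
Median log2 level (vertical axis) of unnamed clusters (filled circles) and named clusters (open squares) on each array (horizontal axis, CREB-KO in red, CREB-WT in blue), as deposited and after centring each array on its median. As deposited, the CREB-KO circles lie at 4.346 to 4.384 and the CREB-WT circles at 4.280 to 4.326, whereas after centring all lie between -0.201 and -0.178.

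The study's thresholds for a change, 1.5-fold with p under 0.05 before adjustment, were applied here to the output of limma, a linear model fitted over all clusters. Of the unnamed clusters, 1031 (3.11%) passed, compared with 2.35% of all clusters. Higher in CREB-KO were 769 (2.32%, against 1.62% of all clusters), and 262 were lower (0.791%, against 0.728%). Among named clusters 516 (1.57%) passed, 298 of them higher. After adjustment by Benjamini-Hochberg over all clusters, limma called 0 unnamed clusters, with a smallest adjusted p of 0.511, while 2170 had an unadjusted p under 0.05. The methods' t-test also called 0 after adjustment and put 610 past the study thresholds. In 3594 unnamed clusters (10.8%) the groups did not overlap, close to the 11.2% of all clusters. Unnamed clusters thus passed the thresholds more often than all clusters together, while their groups were apart about as often, and the part of their wider replicate spread in this was not tested. With clusters of equal values counted once, as described further on, 840 of 32505 unnamed readings (2.58%) passed, 584 higher and 256 lower.

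The balance of directions moved with centring. As deposited, 74.6% of the unnamed clusters past the thresholds were higher in CREB-KO, and after centring it was 62.7%, with 591 higher and 351 lower. For named clusters the same step took the share from 57.8% to 38.8%. Without CREB-WT replicate 1, 677 unnamed clusters were higher and 431 lower, and without CREB-KO replicate 2 these counts were 719 and 380.

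The share of clusters that passed differed with level. Under a mean of 4, 0.74% of unnamed clusters passed, and the share rose to 6.44% at levels of 8 to 10. At levels of 12 to 16 it was 4.76%, and from 16 upward 0.42%. Unnamed clusters passed more often than named ones in all 8 level bands. One band stood far from the rest: at mean levels from 10 to 12, 212 of 888 unnamed clusters (23.9%) passed, 201 higher and 11 lower, compared with 3.36% of named clusters. The median over the unnamed clusters of this band was 11.17, 11.19 and 11.08 in CREB-KO and 10.63, 11.00 and 10.91 in CREB-WT, so that CREB-WT replicate 1 was the lowest array. Centring left 195 of the band's clusters higher. The count did not stand for as many independent readings, however. When clusters with the same 6 values were counted once, 709 different readings remained in the band, of which 31 were higher and 11 lower (5.92%). Named clusters of the band counted in this way gave 2.99%.

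**Figure D3:**
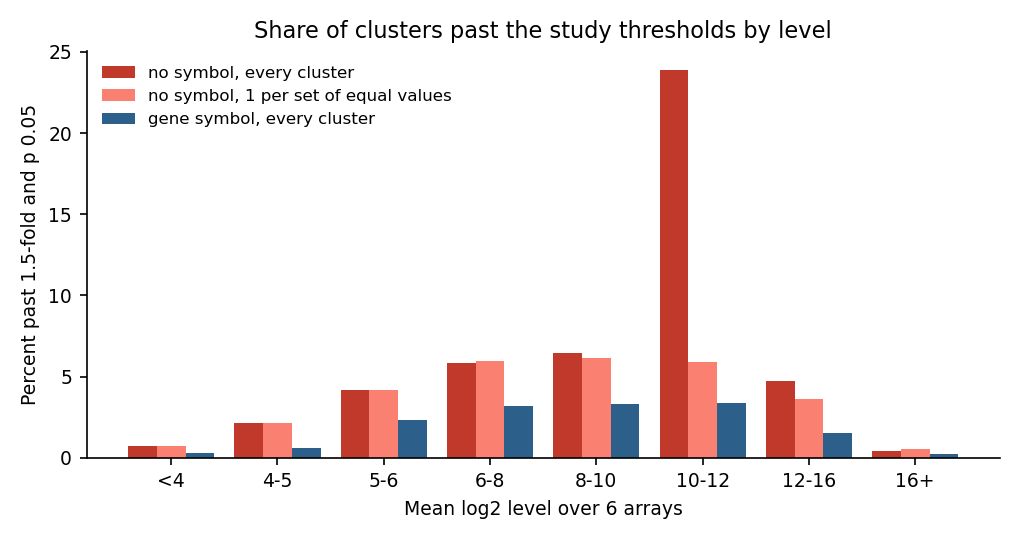
Percent of clusters past 1.5-fold and p 0.05 (vertical axis) by mean log2 level over 6 arrays (horizontal axis), for every unnamed cluster, for unnamed clusters with each set of equal values counted once, and for every named cluster. At levels of 10 to 12 the first bar stands at 23.9%, the second at 5.92% and the third at 3.36%.

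Sets of clusters with equal values on all 6 arrays were thus looked at in turn, a step chosen after the counts were seen. In all, 831 unnamed clusters (2.51%) fell into 194 such sets. Named clusters shared values about as often (2.43%). In 15 sets there were 10 or more clusters, and 55 sets spanned more than 1 chromosome. Whether the clusters of a set share probe sequences was not tested, as no probe sequence was used here, but each set is 1 reading and not several. Of the 194 sets, 19 passed the study thresholds (9.79%). Of these, 15 sets with 200 clusters were higher in CREB-KO, and 10 of the 15 lay at levels of 10 to 12. The other 4, with 10 clusters, were lower.

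The largest set held 63 clusters on 17 chromosomes, with TC0100000118 as the first. It read 12.50, 12.28 and 12.19 in CREB-KO and 11.05, 11.78 and 11.41 in CREB-WT, so that the groups did not overlap. The difference was 0.91 ± 0.21 (SE, adjusted p = 0.671 by limma). A second set, of 35 clusters on 17 chromosomes with TC0100001122 as the first, read 11.30, 11.03 and 11.28 in CREB-KO and 9.66, 10.27 and 10.10 in CREB-WT. Its difference of 1.19 ± 0.19 had an adjusted p of 0.511. Both sets stayed past the thresholds in every alternative run.

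The next sets behaved likewise on most arrays. A set of 30 clusters on 14 chromosomes (first TC0100000955) read 12.55, 12.37 and 12.20 in CREB-KO and 11.26, 11.98 and 11.64 in CREB-WT. Its difference of 0.75 ± 0.21 dropped to 0.56, under the fold threshold, when CREB-WT replicate 1 was left out. A set of 18 on 9 chromosomes (first TC0100001325) differed by 1.46 ± 0.42. One of 13 on 8 chromosomes (first TC0300000439), which read 12.08, 11.50 and 11.56 against 9.52, 10.60 and 10.35, differed by 1.55 ± 0.31. One of 10 on 9 chromosomes (first TC0100001321) differed by 1.33 ± 0.28.

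These sets shared the order of their arrays. In 14 of the 15 higher sets CREB-KO replicate 1 was the highest array and in 14 CREB-WT replicate 1 was the lowest, and the sets are therefore not 15 separate observations of a group difference. Without CREB-WT replicate 1, 11 of the 15 remained past the thresholds, and without both arrays numbered 1, 10 did. Over all 194 sets, CREB-WT replicate 1 was lowest in 60 and CREB-KO replicate 1 highest in 60. Other large sets did not pass. Sets of 26, 18 and 15 clusters at levels from 17.1 to 18.0 had differences of 0.10, 0.11 and 0.10, and a set of 20 clusters on 12 chromosomes at a level of 12.7 differed by 0.48 ± 0.30.

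**Figure D4:**
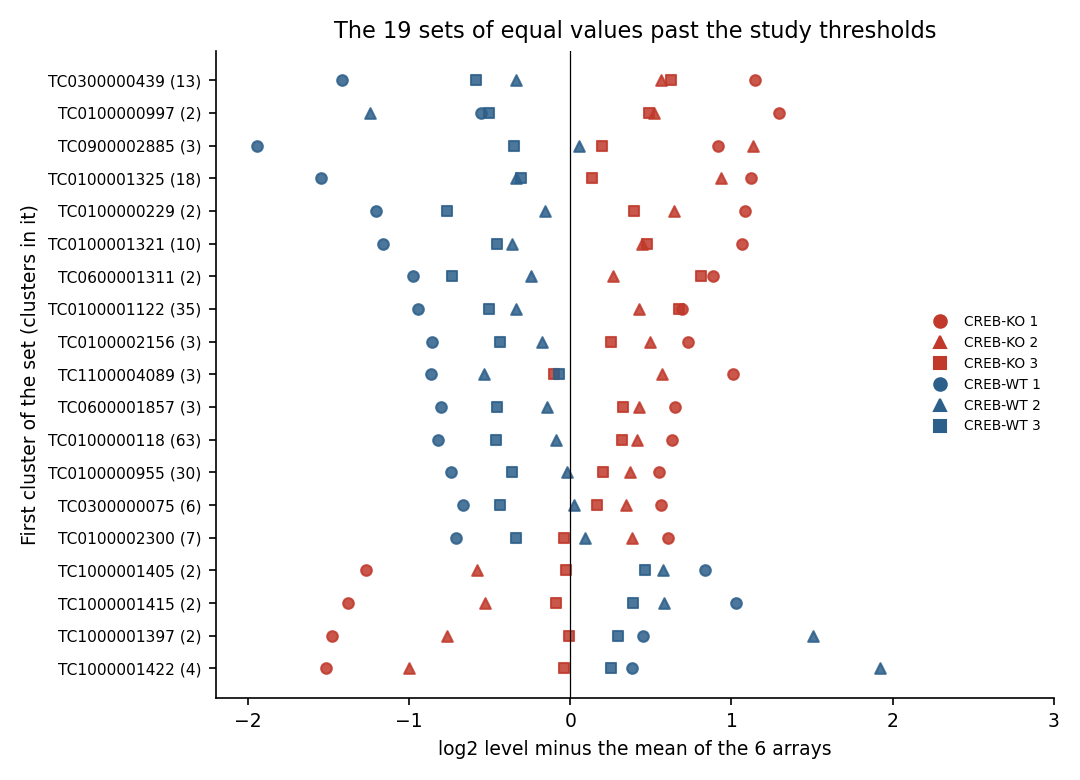
Level of each array relative to the mean of the 6 arrays (horizontal axis, log2) for the 19 sets of equal values past the study thresholds (vertical axis, named by the first cluster with the number of clusters in brackets), with CREB-KO in red, CREB-WT in blue and a marker shape per replicate number. In the 15 upper sets CREB-WT replicate 1 is the lowest array in 14, and the 4 lower sets all lie on chromosome 10.

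The 4 lower sets all lay on chromosome 10, with first members numbered between 1397 and 1422. The set of 4 clusters beginning with TC1000001422 read 7.53, 8.05 and 9.01 in CREB-KO and 9.43, 10.97 and 9.30 in CREB-WT. Its difference was -1.70 ± 0.56, and it lost its call without CREB-KO replicate 1 (-1.37), without CREB-KO replicate 2 (-1.63), without both arrays numbered 1 (-1.61) and in the methods' t-test. Sets of 2 clusters beginning with TC1000001397, TC1000001405 and TC1000001415 differed by -1.50 ± 0.46, -1.25 ± 0.32 and -1.33 ± 0.35, and the t-test and leaving out both arrays numbered 1 (-1.29) ended the call of the first. In all 4 sets CREB-KO replicate 1 was lowest, and CREB-KO replicate 3 was the nearest to the CREB-WT arrays. Other sets of this stretch went both ways without passing. A set of 10 clusters beginning with TC1000001396 differed by -0.71 ± 0.52, and a set of 6 beginning with TC1000001411, which read 14.25, 13.19 and 13.58 against 8.83, 13.06 and 12.29, differed by 2.28 ± 1.07. Of the 31 sets found on chromosome 10 alone, 17 lay above 0 and 14 below. Chromosome 10 had the highest share of unnamed clusters past the thresholds among autosomes, 3.98%, with 44 higher and 28 lower, and chromosome 11 had the lowest, 2.42%. Over all clusters of the array the share was 2.35%, and among named clusters it was 1.72% on chromosome 10 and 1.97% on chromosome 11. Each member of an equal-value set was counted in these shares, also where its set spanned several chromosomes. The 1810 unnamed clusters of chromosome 10 held 1729 different readings.

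Single clusters with the largest differences were taken from the 706 unnamed clusters that passed the thresholds, had groups that did not overlap and lay above the median level of 4.52. Of these, 527 were higher and 179 lower, and they formed 523 different readings. The adjusted p of every cluster named from them was 0.511 or more.

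Highest among them was TC1300000992 on chromosome 13, numbered between Ccnh, a cyclin, and Edil3, a secreted matrix protein. It read 17.60, 17.89 and 18.29 in CREB-KO and 14.06, 15.89 and 15.10 in CREB-WT, a difference of 2.91 ± 0.46 (SE, adjusted p = 0.511). The CREB-KO values exceeded 16 and the CREB-WT values did not. Ccnh differed by -0.001 and Edil3 by 0.05. TC1400000164, numbered directly between Nudt13 and Fam149b, read 7.61, 8.90 and 7.45 in CREB-KO and 4.96, 5.81 and 5.67 in CREB-WT. This was a difference of 2.51 ± 0.43, beside -0.12 and -0.15 in these neighbours. Both clusters passed in every alternative run that held them. TC1300000992 was not in the run without clusters above 16.

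The other large increases varied in how even their replicates were. TC0900001807 read 6.50, 7.82 and 5.22 in CREB-KO and 4.62, 3.80 and 4.21 in CREB-WT, and TC0700004239 read 6.34, 6.74 and 7.92 against 4.42, 4.34 and 5.68. Their differences were 2.31 ± 0.63 (1.66 without CREB-KO replicate 2) and 2.19 ± 0.52. The nearest named cluster before the former, Muc16, also differed upward, by 0.90, and that before the latter, Arhgap17, differed by -0.47. In TC0900001807, TC0700004239, TC0200001136 (1.93), TC0X00002856 (1.75), TC1700002196 (1.84) and TC0100003366 the groups were separated by less than 1 unit. In TC0200001136 the lowest CREB-KO value was 7.38 and the highest CREB-WT value 7.30. Plekha3, before TC0200001136, differed by 0.51. The methods' t-test ended the calls of TC0200001136 and TC1700002196, leaving out both arrays numbered 1 ended those of TC0200001136 (1.35) and TC0X00002856 (1.26), and TC1700002196 differed by 1.18 without CREB-KO replicate 1. The call of TC0100003366 (1.71 ± 0.61) was lost without CREB-KO replicate 1 (1.30), without CREB-KO replicate 2 (1.77) or without CREB-WT replicate 1 (1.10), as well as in the methods' t-test, with the replicate block and without both arrays numbered 1 (0.69). TC0X00000109, numbered directly between Lancl3 and Xk on the X chromosome, read 6.27, 6.07 and 7.20 against 4.73, 5.01 and 4.51, and its difference of 1.76 ± 0.32 stood beside 0.13 and 0.22 in those genes.

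Some higher clusters came in runs of adjacent numbers that all passed the thresholds, whether or not each was among the 706. TC1000002738 read 8.91, 8.52 and 8.01 in CREB-KO and 6.79, 6.55 and 6.58 in CREB-WT, a difference of 1.84 ± 0.24, and the clusters numbered just before and after it differed by 0.87 and 1.24. TC1800001519 had the smallest p of these 706 clusters (adjusted p = 0.511). Its values were 7.31, 7.71 and 7.60 against 5.90, 6.09 and 6.25, a difference of 1.46 ± 0.16, and its neighbour TC1800001520 read 10.00, 11.05 and 10.75 against 8.65, 8.81 and 9.31, a difference of 1.67 ± 0.31. The longest run, TC1600001725 to TC1600001729 on chromosome 16, held 5 clusters at mean levels of 4.58 to 5.95 with differences from 0.83 to 1.66. In TC1600001725 the groups overlapped, with CREB-KO replicate 2 at 4.57 and CREB-WT replicate 2 at 4.63. The nearest named cluster before this run, Alcam, an adhesion molecule of activated leukocytes, differed by 1.29, and the one after the run by 0.11. In all there were 28 runs of adjacent clusters with different values, 23 of them higher and 5 lower, with 61 clusters. In 6 of the higher runs at least 1 cluster belonged to a set of equal values, so its reading cannot be assigned to that position. In 6 of the 28 runs the nearest named cluster on at least 1 side passed the thresholds in the same direction, among them Alcam, Setbp1 (1.07) and Acvr2a (0.84). Of all named clusters 1.57% passed, and the same count around other unnamed clusters was not made.

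Among the lower clusters, the difference was largest in TC1300001813, between Nrn1, which encodes the surface protein neuritin, and F13a1, a subunit of coagulation factor XIII. It read 4.93, 4.65 and 5.49 in CREB-KO and 9.75, 9.35 and 5.87 in CREB-WT. The difference was -3.30 ± 1.00, CREB-WT replicate 3 lay near the CREB-KO arrays, and the call was lost without CREB-WT replicate 2 (-2.79), in the methods' t-test and when both arrays numbered 1 were dropped (-2.54). The next named cluster, Nrn1, differed by -1.25. TC1500001342 (4.32, 5.21 and 5.85 against 7.47, 10.65 and 7.00) differed by -3.25 ± 0.98, and by -2.11 without CREB-WT replicate 2, and the methods' t-test did not call it. TC0500001558 read 4.52, 3.40 and 3.38 against 6.06, 5.96 and 8.86, a difference of -3.19 ± 0.82, and of -2.24 without CREB-WT replicate 3.

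More even replicates were seen in several others. TC1400000572, numbered just before Apex1, a DNA repair endonuclease, read 4.99, 5.70 and 5.22 in CREB-KO and 9.15, 7.83 and 7.23 in CREB-WT, a difference of -2.77 ± 0.49, while Apex1 differed by -0.15. TC0600003240, near Klrc3, a receptor of the natural killer group, read 6.94, 6.37 and 6.86 against 8.95, 8.42 and 9.66. Its difference of -2.28 ± 0.33 stood beside 0.09 in Klrc3 and -0.55 in 1700101I11Rik, the next named cluster on the other side. In TC1100001731, next to the integrin gene Itgb3, the values 4.47, 3.70 and 5.02 against 6.41, 6.00 and 6.89 gave -2.04 ± 0.38, beside -0.24 in Itgb3. TC1100003458 (6.79, 6.27 and 7.30 against 9.95, 8.52 and 8.72) differed by -2.28 ± 0.44. The calls of TC0200001872 (-2.31) and TC0200004490 (-2.04) were lost without CREB-KO replicate 2 (-2.07 and -1.75), and that of the former also without CREB-KO replicate 3 (-2.01). Without CREB-WT replicate 1, TC0200001872 differed by -1.47. The methods' t-test called neither, and without both arrays numbered 1 the call of TC0200004490 was lost (-1.42).

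One lower run adjoined a named gene that was itself lower. TC0500001039 read 8.11, 9.30 and 9.07 in CREB-KO and 10.54, 10.86 and 11.10 in CREB-WT, and the next number, TC0500001040, read 6.96, 8.11 and 6.94 against 8.99, 9.17 and 9.16. Their differences were -2.01 ± 0.33 and -1.77 ± 0.33. They followed Lrrc8b, a subunit of volume-regulated anion channels, which differed by -1.17, and Lrrc8c, which came next among named clusters, differed by -0.34. The 5 smallest p belonged to TC1800001519 and TC1000002738, given above, and to TC0500000330 (1.48 ± 0.17), TC1800000092 next to Gata6 (-0.93 ± 0.11) and TC1100003014 next to Ntn1 (-1.57 ± 0.19). Gata6 and Ntn1 differed by -0.14 and -0.11.

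Over all chromosomes, unnamed clusters moved little with the named cluster next to them. Among pairs that both lay above the olfactory receptor level, Pearson's r of the differences was 0.086 over 6073 pairs of adjacent numbers, 0.029 at a distance of 5 numbers and close to 0 at 50. Pairs of unnamed clusters with different values went together somewhat more, with 0.199 over 3197 adjacent pairs, 0.100 at a distance of 2 and -0.004 at 50. The members of a pair share the same 6 arrays, and a cluster can stand in more than 1 pair, so these are descriptions.

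Around Creb1, the 5 clusters that followed it in number were all unnamed, and 2 of them passed. TC0100000536 read 9.37, 10.88 and 9.70 in CREB-KO and 7.69, 9.23 and 8.19 in CREB-WT, a difference of 1.62 ± 0.52. Its call was lost without CREB-KO replicate 2 (1.17), without CREB-WT replicate 1 (1.28) or without CREB-WT replicate 3 (1.53), and in the methods' t-test. TC0100000537 read 9.04, 7.89 and 8.12 against 7.42, 7.16 and 7.01, and its difference of 1.15 ± 0.31 passed in every alternative run. The following clusters differed by 0.47 ± 0.40, by 1.15 ± 0.48, which missed the threshold on p, and by -0.02 ± 0.19. Beyond them the next named cluster, Ccnyl1, differed by -0.31, and the 2 unnamed clusters just before Creb1 differed by -0.10 and 0.19. The groups were thus apart at Creb1 itself, TC0100000536, TC0100000537 and TC0100000539, the last of which did not pass. They overlapped at TC0100000538 and TC0100000540.

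**Figure D5:**
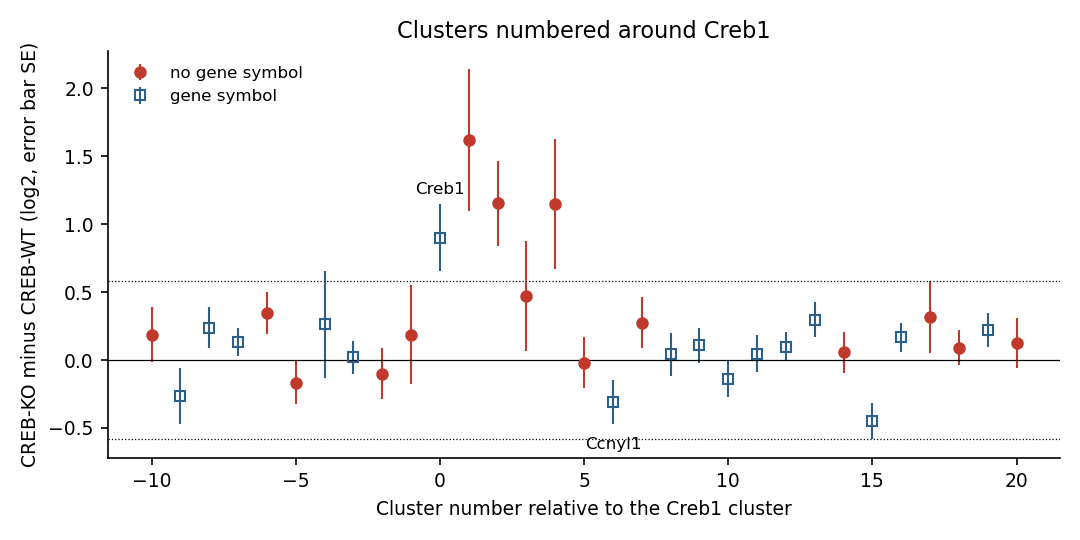
CREB-KO minus CREB-WT difference (vertical axis, log2, error bars SE) of clusters by their number relative to the Creb1 cluster (horizontal axis), with unnamed clusters as filled red circles, named clusters as open blue squares and dotted lines at a fold of 1.5. Creb1 stands at 0.90 and the next 2 unnamed numbers at 1.62 and 1.15, while Ccnyl1 lies at -0.31.

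Genes named in the study or central to Tregs were treated the same way, with all unnamed clusters within 5 numbers on the same run. Crem, a CREB-related transcription factor, had 3 such clusters, of which 1 passed. This was TC1800000926, a member of the set of 35 equal clusters described above, whose reading therefore cannot be assigned to this position. Near Il10, an anti-inflammatory cytokine gene, 1 of 3 such clusters passed. This was TC0100001169, at 7.96, 7.87 and 7.20 against 7.05, 7.34 and 6.56. Its difference of 0.69 ± 0.28 passed, and the call was lost in 10 of 16 alternatives, among them leaving out replicate 1 (0.55) or 2 (0.60) of CREB-KO, replicate 1 (0.73) or 3 (0.48) of CREB-WT, and centring on all clusters (0.63). None of the unnamed clusters near Il13 (5), Il4 (5), Nt5e (6), Itgae (2), Ctla4 (6), Ikzf2 (8) or Il2ra (3) passed. Their differences lay between -0.24 and 0.57. Ccdc22 had no unnamed cluster within 5 numbers.

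The mitochondrial genome, which encodes subunits of the respiratory chain with its own ribosomal and transfer RNAs, held 19 unnamed and 11 named clusters. Unnamed levels were high, with means from 10.2 to 19.9. At the upper end, TC0M00000019 and TC0M00000028 belonged to the set of 23 clusters equal to Rn28s1, so their readings cannot be assigned to this genome. Of the unnamed clusters 4 (21.1%) passed the thresholds, all lower in CREB-KO. Over all clusters of the array 2.35% passed and 0.728% were lower. Of the named mitochondrial clusters 0 passed, and 8 of these had means above 19, where readings hardly varied. TC0M00000023 read 12.68, 12.48 and 12.61 in CREB-KO and 13.59, 13.22 and 14.22 in CREB-WT, and TC0M00000015 read 12.47, 12.18 and 11.68 against 12.88, 13.71 and 13.00. Their differences of -1.08 ± 0.26 and -1.09 ± 0.29 passed in every alternative run. TC0M00000021 (-0.86 ± 0.32) and TC0M00000024 (-0.79 ± 0.30) did not. The former lost its call without replicate 1 (-0.69) or 3 (-0.91) of CREB-KO or replicate 3 (-0.52) of CREB-WT, and the latter without any 1 of the CREB-KO arrays (-0.88, -0.69 and -0.81) or without CREB-WT replicate 3 (-0.45), and both lost it in the methods' t-test. The median difference over the 19 unnamed mitochondrial clusters was -0.016, and 6 of them were not below 0. The set that holds Rn28s1 had this same difference. A lower level in bulk cells can come from fewer cells of a kind or from less RNA per cell, and these cannot be told apart here.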

How the data were processed

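Each of 6 Mouse Transcriptome arrays (MTA 1.0 by the series' design text, while the paper's text names other arrays) measured RNA of Tregs sorted by magnetic beads and flow cytometry from 1 mouse. The authors deposited log2 values made with RMA in Affymetrix Expression Console, which corrects background, normalizes between arrays and gives 1 value per transcript cluster. Its version and the array's genome build are not given in the sources used here. Symbols came from the platform annotation. All deposited columns belonged to a labelled array (0 left over).

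CREB-KO and CREB-WT (n = 3 each) were compared with limma 3.58.1 (lmFit, eBayes) in R 4.3.3 over all 65956 clusters without a filter, at the study's thresholds (fold 1.5, unadjusted p 0.05) and with Benjamini-Hochberg adjustment. The fits were tested on simulated data. An exact permutation test of 3 against 3 cannot go below 0.1, so none was used. Only 6 arrays limit the precision, and no counts exist. The single clusters named were, among those past the thresholds with groups apart and a mean above the median, the 10 largest differences each way and the 5 smallest p, the 10 highest levels overall and below 16, and those past the thresholds within 5 numbers of 11 genes. Clusters of the mitochondrial genome and of equal-value sets were added after their values were seen. The members and lists were chosen with earlier results of these data known. Alternatives were 2 centrings, quantile normalization, level filters, a trended robust prior, the methods' t-test, a replicate block and leaving out arrays. Chosen after seeing the data were the count at levels 10 to 12, counting equal values once and leaving out both arrays numbered 1.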

Additional observations from a re-analysis of the deposited data

How the results depend on the processing

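With 3 arrays a group and no adjusted call in limma under any alternative (2170 unnamed clusters at an unadjusted p under 0.05), the counts describe these arrays. The methods' t-test put 610 unnamed clusters past the thresholds, 484 higher and 126 lower, against 1031, 769 and 262 with limma. Leaving out 1 array gave 1099 to 1465 clusters, 677 to 1147 higher and 278 to 431 lower, and 167 to 217 higher at levels 10 to 12. Without both arrays numbered 1 there were 463 lower. Counting equal values once, 31 in place of 201 were higher at levels 10 to 12. The median difference of unnamed clusters was 0.0626, -0.0008 after centring on all clusters, 0.0126 after centring on named clusters, 0.0093 after quantile normalization and 0.0478 to 0.0870 leaving out 1 array. The distance between unnamed and named medians differed between groups by 0.0226, by 0.1226 over clusters above the median level and by 0.0067 to 0.0380 leaving out 1 array. The share above the olfactory receptor level was 33.13%, 38.06% and 22.13% at the 95th, 90th and 99th percentile, and 32.64% to 33.35% leaving out 1 array. The other 95 values of these results, some within the ranges above, stayed within 1 SD between replicates or 1.5 times the count. Of 51 single clusters and sets followed, 32 passed in every alternative run that held them, 14 lost their call when 1 array was left out and 0 changed sign. The 32 count TC1800000926 and the set of 35 equal clusters that holds it separately, though they are 1 reading.

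Replicate numbers are not said to pair the mice, and deviations of same-numbered arrays correlated by 0.218, 0.018 and 0.041, with 3 of 6 arrays closest to their own number. With the replicate block, 1306 unnamed clusters passed, 956 higher and 350 lower, 215 of the higher at levels 10 to 12, and 0 after adjustment. Readings near 19.93 leave no room to differ upward, and low signal limits the 22163 unnamed clusters at or below the olfactory receptor level.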

Other observations

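Unnamed clusters without a chromosome were described apart. Of the 21 on the unmapped list, TSUnmapped00000096 read 19.93, 19.88 and 19.93 in CREB-KO and 19.93 in each CREB-WT array, equal to 2 decimals to the set that holds Rn28s1, and TSUnmapped00000095 read 17.31, 17.92 and 17.68 against 18.08, 18.10 and 18.14. The remaining 19 lay at or below the olfactory receptor level. On random scaffolds of chromosome 1, TC1_GL456221_random00000005 and TC1_GL456210_random00000009 shared the values 15.16, 15.72 and 15.77 against 16.36, 15.90 and 15.91. Of the 101 scaffold clusters, 3 (2.97%) passed the study thresholds, all higher, and 1 of these belonged to the set of 63 equal clusters. This share was near the 2.35% of all clusters and the 3.11% of all unnamed clusters. The 4 unnamed clusters of the Y chromosome that passed (1.33%) were all members of the set of 30 equal clusters and so gave no reading particular to that chromosome.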
